A study of Homo sapiens with 24 samples.

Results

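The comparison described here sets drug tolerant persister (DTP) cells of the parental KYSE450 line against the parental cells themselves. KYSE450 is an established cell line from a human oesophageal squamous cell carcinoma. Bulk RNA sequencing gave 6 libraries labelled parental and 6 labelled parental-DTP, 12 of the 24 libraries in the series. The other 12 hold a chemoresistant derivative titled KYSE450DDP and its own persister cells, 6 each. Every library has the genotype WT, the cell type ESCC cell and the same medium, RPMI-1640 with fetal bovine serum. The treatment field of every library, persister libraries included, reads as untreated, so the drug, dose and time behind the persister state are not known here. All groups come from 1 cell line, and nothing says that the 6 libraries of a group are separate cultures, so the p-values measure the spread between these libraries, which may be technical. Genes entered the comparison when their mean was at least 1 FPKM (fragments per kilobase, a level scaled to gene length and to library size) in the parental or the persister group, which 12690 of 61251 genes did.

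Persister cells are the few tumour cells still alive after a drug exposure that kills the others, usually without a resistance mutation and often while dividing slowly. Much of what such cells do at the RNA level runs through a few stress programmes. In the integrated stress response, kinases that sense amino acid shortage, misfolded protein in the endoplasmic reticulum, haem shortage or double-stranded RNA phosphorylate the initiation factor eIF2, general translation falls, and the transcription factor ATF4 is made and switches on genes of amino acid synthesis, transport and tRNA charging together with its own feedback genes. The heat shock response, driven by HSF1, instead supplies HSP70 and HSP90 chaperones to the cytosol. NF-kB drives chemokines and inflammatory mediators, and E2F and the DREAM complex hold the genes of DNA replication and mitosis under cell cycle control.

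The 12 libraries held between 14947378 and 37989455 recovered reads, and a count of 0 in them allows up to 0.079 to 0.201 CPM (counts scaled to library size), counting error only. All 10 squamous epithelial markers were present (KRT5, KRT14, KRT6A, KRT17, TP63, DSG3, DSC3, PKP1, CDH1 and EPCAM), and their summed level was 4496 to 4990.0 FPKM in parental and 2729 to 3319 FPKM in persister libraries. Of 9 fibroblast, 10 leukocyte, 8 endothelial and 10 glandular markers, only COL1A1 and the glandular gene AGR2 averaged 1 FPKM or more over the 12 libraries. The first principal component held 72.9% of the variance and separated the groups. Persister libraries 5 and 6 stood apart from the other 4: S100A7, AKR1B10 and IFI27, which lay under 0.5 FPKM in every parental library and averaged at least 20 FPKM in the chemoresistant line, reached a median of 3.20% and 2.51% of the chemoresistant level in them, against 0.0747% to 0.214% in persister libraries 1 to 4. The reverse set held 10 genes, under 1 FPKM in every library of the chemoresistant line and averaging at least 5 FPKM in parental libraries. Their median was 68.49% and 73.89% of the parental level in persister libraries 5 and 6, against 85.52% to 89.45% in persister libraries 1 to 4. The part of this in the results was not tested. Without both libraries, the rises and falls of a gene list moved by at most 3 genes in 52 of 55 lists. The exceptions were the cytosolic ribosomal proteins and interferon-stimulated genes, described below, and the nuclear-encoded respiratory chain, in which 14 of 51 genes rose and 4 fell with them and 9 rose and 4 fell without them. In short lists a shift of this size is a large share, and medians also moved in the mesenchymal and cornified envelope lists, described below. Within both groups the libraries also differed in how their deviations followed gene GC content, with Spearman's rho from -0.581 to 0.552 over 12265 genes. Parental libraries 5 and 6 formed a pair apart within their group, at -0.56 and -0.581 against 0.2 to 0.511 in parental libraries 1 to 4. Their second principal component (8.5% of the variance) was -13.92 and -13.87, against 2.5 to 9.8 in the other parental libraries. Leaving out both of this pair together was not tested.

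Of the 12690 genes, 5808 rose in the persister cells and 2667 fell at an adjusted p under 0.05 (limma on log2(FPKM + 1), Benjamini-Hochberg over all genes tested), which is 45.8% and 21% of them and 66.8% (8475 genes) in all. At least 2-fold changes on that scale were far fewer, 379 rises (2.99%) and 91 falls (0.717%). In 4160 genes (32.8%) every persister library lay above every parental library, and in 1772 genes (14%) every one lay below. The median gene had a log2 fold change of 0.14, so a small rise is the common state and the counts of each list below are read against these shares. With relative log expression scaling, which sets that median to about 0, 4216 genes rose and 4200 fell (33.2% and 33.1%). Of the genes tested, 1372 reached 1 FPKM in the persister group alone and 185 in the parental group alone. The filter itself favoured a rise of the former (1239 rose) and a fall of the latter (113 fell). Such members are therefore counted apart for the lists described below that hold 3 or more of them, and for some with fewer. In the other lists they stay in the counts. Among the genes named below, ATF3, ASNS, SLC43A1, CCL20 and BBC3 stayed under 1 FPKM in every parental library, so the filter favoured their rise too. The same holds for HBEGF, whose parental mean was under 1 FPKM. Without persister libraries 5 and 6 the counts were 5485 and 2649 of 12647. In a bulk sample, fewer cells of a kind and less RNA per cell cannot be told apart.

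**Figure D1:**
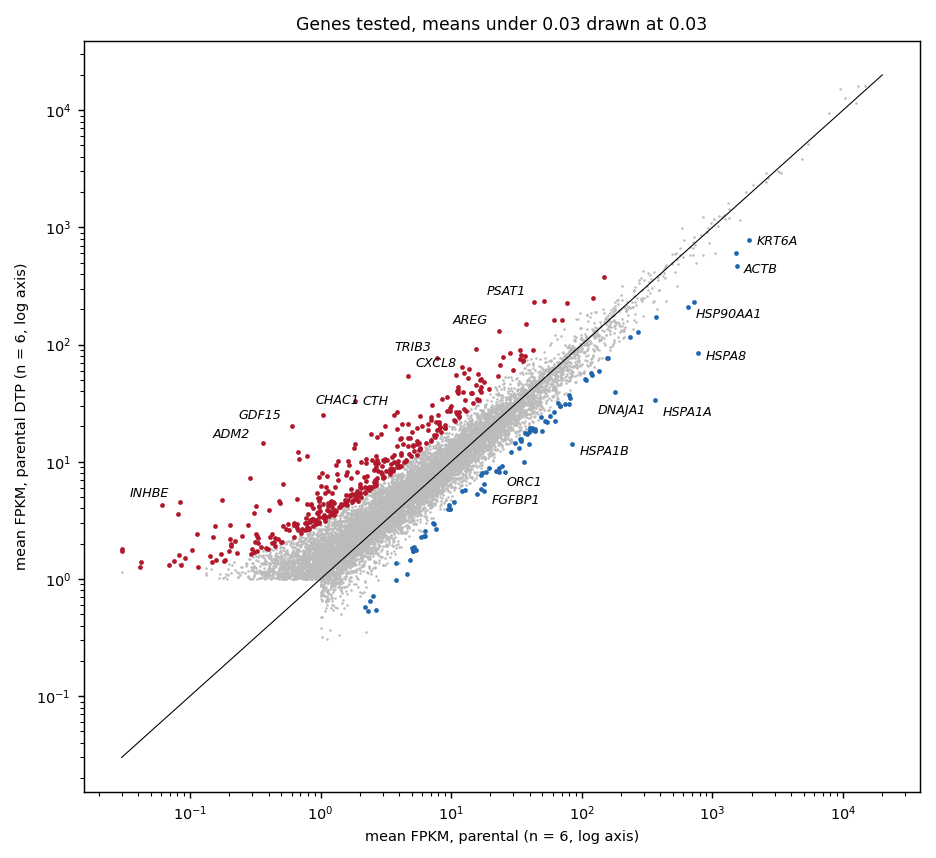
Mean FPKM of each tested gene in the 6 parental libraries (x, log axis) against the 6 persister libraries (y, log axis), with the line of equal levels. Red points are the 379 genes that rose and blue points the 91 that fell at least 2-fold on the log2(FPKM + 1) scale. GDF15 and CHAC1, with the largest rises on that scale, start from a low parental level. The genes that fell include abundant parental mRNAs (HSPA8, HSPA1A, ACTB and KRT6A) and less abundant ones (ORC1 and FGFBP1).

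In what follows, levels are given as the lowest, median and highest of the 6 libraries of a group, and log2 fold changes of persister against parental cells are on the log2(FPKM + 1) scale with their standard error. Genes were named by size of change within lists, and those outside that rule are ATF4, ATF5, ASNS, SLC7A5, FARSA, EGFR, HSF1, MYC, CDKN1A, TP63, SOX2, KRT5, KRT14 and BAX, chosen after their values were seen.

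Genes of the integrated stress response were among the largest rises. Of the 15 transcription factors and feedback genes of this response, 14 rose and 1 fell, with a median log2 fold change of 1.45 against 0.14 for all genes, and 11 rose at least 2-fold. Of these 15, 3 reached 1 FPKM in persister cells alone, and of the other 12, 11 rose and 1 fell. TRIB3, a pseudokinase that restrains ATF4 signalling, was 7.48, 7.8 and 8.34 FPKM in parental and 71.3, 76.1 and 82.2 FPKM in persister libraries. Its groups did not overlap, and the persister mean was 9.7-fold the parental mean (log2 fold change 3.12 ± 0.05, adjusted p = 3.34e-24). ATF3, a stress-induced repressor and activator of the ATF/CREB family, was 0.601, 0.684 and 0.757 FPKM in parental and 9.9, 10.4 and 11.9 FPKM in persister libraries (log2 fold change 2.79 ± 0.05, adjusted p = 1.87e-22). DDIT3, which encodes the death-promoting factor CHOP, was 2.95, 3.92 and 4.56 FPKM and 21.9, 25.4 and 34.7 FPKM in the same order (log2 fold change 2.51 ± 0.10, adjusted p = 1.52e-16). For both genes the lowest persister library lay above the highest parental library. SESN2, a leucine sensor that inhibits mTORC1, went from 3.67 ± 0.164 to 25 ± 1.66 FPKM (mean ± SD, n = 6; log2 fold change 2.48 ± 0.05, adjusted p = 9.4e-23). ATF4 itself, whose control is mainly at translation, was already abundant at 117, 127 and 135 FPKM and rose to 181, 188 and 198 FPKM (log2 fold change 0.57 ± 0.05, adjusted p = 3.07e-10). The single member that fell was ATF5, another eIF2-responsive factor of the same family, from 8.55 ± 0.139 to 6.1 ± 0.221 FPKM (log2 fold change -0.43 ± 0.05, adjusted p = 2.22e-07).

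The amino acid limb of the response rose with it. Of 16 genes of serine, one-carbon, asparagine and proline synthesis, 13 rose and 3 fell (median 0.83), 6 of them by at least 2-fold. Of the 15 that reached 1 FPKM in both groups 12 rose and 3 fell. CTH, the cystathionine gamma-lyase that makes cysteine, was 1.58, 1.81 and 2.39 FPKM in parental and 28.4, 32.8 and 36.6 FPKM in persister libraries, a 17.7-fold higher mean (log2 fold change 3.56 ± 0.06, adjusted p = 6.64e-23). PSAT1, the transaminase of serine synthesis, was 38.9, 41.6 and 47.8 FPKM and 203, 224 and 282 FPKM (log2 fold change 2.39 ± 0.06, adjusted p = 9.12e-20). Neither gene had overlapping groups, and PSAT1 was the more abundant of the pair in every library. GPT2, a mitochondrial alanine transaminase, went from 13.5 ± 0.673 to 51.9 ± 4.11 FPKM (log2 fold change 1.87 ± 0.05, adjusted p = 3.31e-20). ALDH1L2, a mitochondrial enzyme of formate and NADPH production, went from 2.24 ± 0.197 to 10.6 ± 0.763 FPKM (log2 fold change 1.83 ± 0.07, adjusted p = 1.73e-16). ASNS, the asparagine synthetase that is a textbook ATF4 target, was low in both groups, 0.537, 0.636 and 0.723 FPKM and 2.23, 2.87 and 3.23 FPKM (log2 fold change 1.24 ± 0.06, adjusted p = 4.06e-14). PCK2, the mitochondrial phosphoenolpyruvate carboxykinase, was 11.1, 12.4 and 13.2 FPKM and 58.5, 61.5 and 77.5 FPKM (log2 fold change 2.29 ± 0.07, adjusted p = 4.22e-18), with a wide gap between the groups. CHAC1, which breaks down glutathione and is induced through ATF4, had the second largest log2 fold change of the named genes after GDF15 on the log2(FPKM + 1) scale, from 0.837, 0.998 and 1.46 FPKM to 21.4, 25.7 and 27.8 FPKM (log2 fold change 3.67 ± 0.08, adjusted p = 1.96e-21).

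Among 14 tested amino acid transporters, 9 rose and 3 fell (median 0.70). Of the 13 that reached 1 FPKM in both groups 8 rose and 3 fell. The glycine transporter SLC6A9 was 1.64, 1.92 and 1.95 FPKM in parental and 12.7, 14.2 and 15.5 FPKM in persister libraries (log2 fold change 2.42 ± 0.06, adjusted p = 6.45e-20). SLC7A11, the cystine importer whose activity feeds glutathione synthesis, was 0.998, 1.43 and 1.53 FPKM and 9.46, 10.1 and 11.8 FPKM (log2 fold change 2.26 ± 0.14, adjusted p = 5.05e-13). The lowest persister value was thus several times the highest parental value for both transporters. SLC1A4, a neutral amino acid carrier, changed by 2.16 ± 0.04 (adjusted p = 5.81e-22). SLC43A1, a carrier of large neutral amino acids, changed by 1.92 ± 0.05 (adjusted p = 2.08e-20). The main leucine importer SLC7A5 was very abundant in both groups, with medians of 1237 and 1198 FPKM, and its groups overlapped (log2 fold change 0.06 ± 0.07, adjusted p = 0.424).

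The cytosolic and mitochondrial lists of enzymes that charge tRNAs differed in their counts. Of 20 cytosolic aminoacyl-tRNA synthetases, 15 rose and 4 fell (median 0.68), or 13 and 5 with relative log expression scaling. Of 16 tested mitochondrial synthetases, 4 rose and 4 fell (median 0.04), or 1 and 7 with relative log expression scaling (median -0.10), and none changed 2-fold in either direction. AARS1, the alanyl enzyme, was 27.4, 28.1 and 28.7 FPKM in parental and 79, 81.3 and 94 FPKM in persister libraries (log2 fold change 1.55 ± 0.04, adjusted p = 5.4e-20). CARS1, the cysteinyl enzyme, changed by 1.53 ± 0.04 (adjusted p = 2.2e-19). GARS1, the glycyl enzyme, changed by 1.46 ± 0.05 (adjusted p = 3.83e-17). MARS1, the methionyl enzyme, changed by 1.40 ± 0.05 (adjusted p = 9.17e-18). These 4 had persister libraries that all lay above the parental ones. FARSA, a subunit of the phenylalanyl enzyme, moved the other way, from 99.2, 105 and 111 FPKM to 54.2, 60.2 and 64.9 FPKM (log2 fold change -0.80 ± 0.05, adjusted p = 2.14e-12). The largest fall of a mitochondrial enzyme was -0.52 ± 0.04 for LARS2, the leucyl enzyme.

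**Figure D2:**
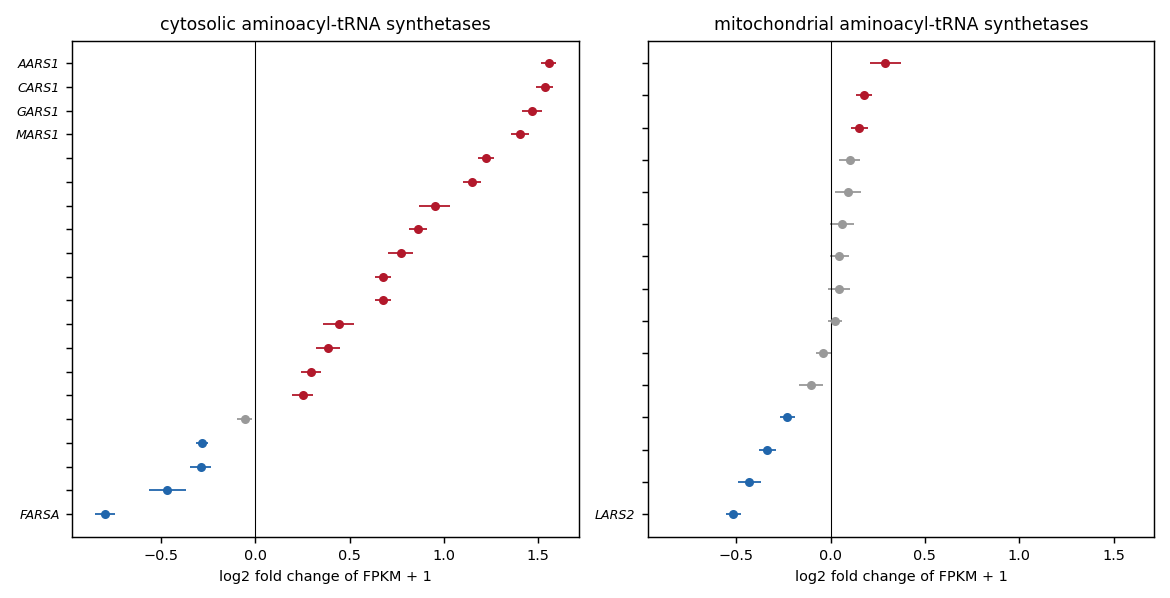
Log2 fold change (persister against parental, FPKM + 1) of the aminoacyl-tRNA synthetases with their standard errors, cytosolic on the left and mitochondrial on the right. Red points rose, blue points fell and grey points did not pass an adjusted p of 0.05. The 20 cytosolic enzymes run from -0.80 to 1.55, and the 15 mitochondrial ones drawn stay closer to 0, with LARS2 lowest at -0.52. Only enzymes described in the text carry a name.

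Promoter sequence was looked at because ATF4 and its partners bind a composite element, here searched as TGATGNAA on both strands in windows of 300 bases (250 before and 50 after each start, RefSeq, GRCh38.p14). The element was present in 6 of 16 cytosolic synthetase promoters (37.5%), 3 of 11 of the serine and asparagine list (27.3%) and 3 of 15 transporter promoters (20%), against 3.67% of all 27305 promoters in the table and 1.62% of those of genes tested. Of the mitochondrial synthetases 1 of 14 had it, as did 1 of 13 of the transcription factor list. These and the later promoter shares count every list member with a promoter window, whether tested or not and whichever way it changed. TRIB3 had no match in this window. The matching promoters of ATF3 (chr1:212565157-212565406, plus strand), AARS1 (chr16:70289507-70289756, minus strand) and ASNS (chr7:97872409-97872658, minus strand) are shown as the 250 bases before the start, with the match in capitals, AARS1 and ASNS having been chosen after the shares were seen.
ATF3: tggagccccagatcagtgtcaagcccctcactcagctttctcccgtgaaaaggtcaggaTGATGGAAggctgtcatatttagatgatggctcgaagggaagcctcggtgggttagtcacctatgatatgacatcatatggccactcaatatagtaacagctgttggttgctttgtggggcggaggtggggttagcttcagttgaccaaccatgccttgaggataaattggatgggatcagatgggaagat
AARS1: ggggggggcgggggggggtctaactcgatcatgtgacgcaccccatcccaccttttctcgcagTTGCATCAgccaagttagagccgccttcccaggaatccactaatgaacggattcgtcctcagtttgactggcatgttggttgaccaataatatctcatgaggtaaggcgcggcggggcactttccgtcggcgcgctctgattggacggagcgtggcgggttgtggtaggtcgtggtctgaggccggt
ASNS: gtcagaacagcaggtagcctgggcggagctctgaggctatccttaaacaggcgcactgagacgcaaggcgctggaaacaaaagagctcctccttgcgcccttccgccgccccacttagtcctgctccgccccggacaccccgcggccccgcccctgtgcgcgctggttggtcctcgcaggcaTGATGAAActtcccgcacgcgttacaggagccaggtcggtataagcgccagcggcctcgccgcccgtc
The match begins 191 bases before the start in ATF3, 187 in AARS1, where it lies on the opposite strand, and 68 in ASNS. A match is a description of the letters, not evidence of binding.

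Secreted factors linked to the stress response included the largest fold change by group means of the named genes. Of 11 listed stress hormones, 3 stayed under 1 FPKM in both groups and 3 (GDF15, ADM2 and INHBE) reached it in persister cells alone, so that their entry fixed a rise. The other 5 all rose. GDF15, a hormone of the TGF-beta superfamily that suppresses appetite (chr19:18374731-18389176, GENCODE 29), was 0.431, 0.61 and 0.742 FPKM in parental and 15.9, 20.4 and 23.9 FPKM in persister libraries. The persister mean was 33.2-fold higher with no overlap (log2 fold change 3.71 ± 0.09, adjusted p = 6.68e-21). Its receptor GFRAL was almost undetected, with 0 reads summed over the parental and 2 over the persister libraries. ADM2, a peptide of the calcitonin family, was 0.312, 0.348 and 0.469 FPKM and 13.5, 14.6 and 15.4 FPKM (log2 fold change 3.50 ± 0.05, adjusted p = 2.06e-25). INHBE, an activin subunit, was 0.0585, 0.0779 and 0.137 FPKM and 4.0, 4.42 and 5.23 FPKM (log2 fold change 2.35 ± 0.06, adjusted p = 1.6e-19). Both started under 0.5 FPKM in every parental library, a level at which the log2(FPKM + 1) scale understates the ratio, which was 39.9-fold and 53.7-fold by group means. LIF, a cytokine of the interleukin 6 family, went from 2.73 ± 0.251 to 16.1 ± 1.59 FPKM (log2 fold change 2.20 ± 0.06, adjusted p = 9.12e-20).

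Chemokines and NF-kB feedback genes rose together. Of 17 CXC and CC chemokines only 8 were tested, and 6 of these rose, all 6 by at least 2-fold, and 1 fell (median 1.92). Of the 7 that reached 1 FPKM in both groups 5 rose and 1 fell. CXCL8, the neutrophil attractant also called interleukin 8, was 3.67, 4.22 and 6.29 FPKM in parental and 43.1, 55.4 and 62.5 FPKM in persister libraries (log2 fold change 3.29 ± 0.11, adjusted p = 1.2e-17). CXCL1, which acts on the same receptor, was 14.4, 15 and 16.9 FPKM and 80.7, 93.6 and 97.5 FPKM (log2 fold change 2.50 ± 0.06, adjusted p = 1.48e-20). The groups were far apart for both, and CXCL1 was the more abundant of the pair in every library of either group. CXCL3 changed by 2.08 ± 0.07 (adjusted p = 2.25e-18). CCL20, a ligand of CCR6 on lymphocytes, was 0.307, 0.525 and 0.718 FPKM and 5.88, 6.41 and 7.29 FPKM (log2 fold change 2.31 ± 0.07, adjusted p = 2.89e-18). Of 19 interleukins and mediators 12 stayed under 1 FPKM in both groups, and 4, PTGS2, TSLP and IL23A among them, reached it in persister cells alone, where entry fixed a rise. The other 3 rose. PTGS2, the inducible cyclooxygenase of prostaglandin synthesis, was 0.699, 0.75 and 0.917 FPKM and 10.6, 10.9 and 12.1 FPKM (log2 fold change 2.76 ± 0.08, adjusted p = 1.28e-18). TSLP and IL23A, epithelial and myeloid cytokines, stayed low, with medians of 1.80 and 1.04 FPKM in persister libraries (1.10 ± 0.05 and 0.58 ± 0.08). Of 17 tested NF-kB subunits and feedback genes, 15 rose and 0 fell (median 0.69), or 13 and 1 with relative log expression scaling. TNFAIP3, the A20 enzyme that damps NF-kB signalling, was 12.9, 14.1 and 16.3 FPKM and 32.6, 38.6 and 42.4 FPKM (log2 fold change 1.38 ± 0.08, adjusted p = 9.74e-14). TNFAIP2 (1.27 ± 0.07), BCL3 (1.10 ± 0.09) and NFKB2 (1.03 ± 0.06) also rose with no overlap of libraries.

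An NF-kB site, searched as GGNNTTTCC on both strands, was in 9 of 13 chemokine promoters (69.2%) and in 9 of 16 promoters of the NF-kB list (56.2%). It was in 6.26% of all promoters and 6.69% of those of genes tested. Only 8 chemokines were tested, so the 13 include untested members. The promoters of the chemokines with the largest rises, CXCL8 (chr4:73740319-73740568, plus strand) and CXCL1 (chr4:73869143-73869392, plus strand), show the match in capitals.
CXCL8: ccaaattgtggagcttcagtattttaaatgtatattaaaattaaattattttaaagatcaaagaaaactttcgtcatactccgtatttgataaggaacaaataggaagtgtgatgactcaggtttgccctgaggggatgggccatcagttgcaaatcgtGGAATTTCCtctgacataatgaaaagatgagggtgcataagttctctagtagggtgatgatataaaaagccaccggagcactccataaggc
CXCL1: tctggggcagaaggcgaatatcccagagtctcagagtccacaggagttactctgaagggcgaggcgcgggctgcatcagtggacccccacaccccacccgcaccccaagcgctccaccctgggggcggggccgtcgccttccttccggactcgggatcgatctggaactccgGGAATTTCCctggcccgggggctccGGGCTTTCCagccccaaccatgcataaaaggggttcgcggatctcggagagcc
CXCL8 has 1 match, 91 bases before the start, and CXCL1 has 2, at 78 and 53 bases. The chemokine genes CXCL8, CXCL1 and CXCL3 and the growth factor genes EREG and AREG, all of which rose, lie on the same stretch of chromosome 4 (chr4:73740506-73743716 for CXCL8, chr4:74445134-74455009 for AREG, GENCODE 29).

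Ligands of the EGF receptor rose as well as the receptor. Of 13 tested members of the EGFR family, its ligands and its inhibitor, 12 rose and 0 fell (median 0.90), and 10 rose under relative log expression scaling. Of the 11 that reached 1 FPKM in both groups 10 rose and 0 fell. AREG, amphiregulin, was 21.2, 23.3 and 26.7 FPKM in parental and 118, 127 and 152 FPKM in persister libraries (log2 fold change 2.43 ± 0.07, adjusted p = 1.34e-19). EREG, epiregulin, was 8.49, 9.14 and 10.2 FPKM and 32.4, 35.6 and 39.1 FPKM (log2 fold change 1.84 ± 0.07, adjusted p = 9.52e-17). HBEGF, the heparin-binding ligand, was lower, 0.702, 0.988 and 1.05 FPKM and 3.31, 3.72 and 4.01 FPKM (log2 fold change 1.27 ± 0.05, adjusted p = 7.64e-16). Its mean reached 1 FPKM in persister cells alone, where the filter favoured a rise. None of the 3 ligands had overlapping groups. EGFR itself was 102, 125 and 130.4 FPKM and 231, 246 and 267 FPKM (log2 fold change 1.03 ± 0.13, adjusted p = 1.23e-07), and ERRFI1, the feedback protein that binds and inhibits it, was 11.3, 12 and 14 FPKM and 33.5, 39.6 and 46.7 FPKM (log2 fold change 1.58 ± 0.08, adjusted p = 3.71e-14). Of 12 tested ERK feedback genes 8 rose and 3 fell (median 0.32). PHLDA1, a pleckstrin-homology protein induced by growth factors, went from 12.6 ± 2.19 to 57.5 ± 7.05 FPKM (log2 fold change 2.11 ± 0.08, adjusted p = 1.2e-16). ETV5, an ETS factor downstream of ERK, changed by 1.09 ± 0.05 (adjusted p = 1.35e-14). Of 21 tested immediate early and AP-1 genes, 16 rose and 3 fell (median 0.56), or 13 and 3 without the 3 members that reached 1 FPKM in persister cells alone. JUN was 10.6, 11.3 and 11.9 FPKM and 32.9, 41.6 and 44.6 FPKM (log2 fold change 1.75 ± 0.07, adjusted p = 1.27e-16), whereas FOSL1, the FRA1 partner of JUN, fell from 27.6, 34.9 and 36.1 FPKM to 12.5, 13.2 and 13.7 FPKM (log2 fold change -1.25 ± 0.06, adjusted p = 3.56e-14). The small factor MAFF changed by 1.15 ± 0.05 (adjusted p = 4.16e-15).

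The largest falls were cytosolic chaperones. Of 22 tested HSP70 and HSP40 genes, 15 fell and 3 rose (median -0.30), 5 of them falling at least 2-fold. HSPA8, the constitutive HSP70 of the cytosol (chr11:123057489-123063230, GENCODE 29), was 727, 799 and 814 FPKM in parental and 76.7, 82.7 and 96.9 FPKM in persister libraries. The parental mean was 9.25-fold the persister mean (log2 fold change -3.20 ± 0.05, adjusted p = 2.22e-23). HSPA1A, the main inducible HSP70, was 301, 382 and 419 FPKM and 24.8, 35.4 and 39.6 FPKM (log2 fold change -3.42 ± 0.11, adjusted p = 1.59e-18). HSPA1B, its neighbour on chromosome 6, was 77.1, 83.3 and 96 FPKM and 12.8, 14 and 15.4 FPKM (log2 fold change -2.50 ± 0.07, adjusted p = 9.12e-20). The HSPA1A and HSPA1B sequences are nearly identical, so reads may be split between them, and both fell with no overlap of libraries. DNAJA1, a J-domain partner of HSPA8, went from 181 ± 9.46 to 39.2 ± 4.99 FPKM (log2 fold change -2.19 ± 0.07, adjusted p = 2.15e-18). Summed over these 4 genes and HSP90AA1, the level was 2011, 2076 and 2095 FPKM in the lowest, median and highest parental library and 333, 391 and 396 FPKM in the persister libraries.

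The HSP90 system followed. Of 16 genes of HSP90 and its co-chaperones, 10 fell and 0 rose (median -0.51). HSP90AA1, the stress-inducible HSP90, was 579, 623 and 761 FPKM and 176, 218 and 222 FPKM (log2 fold change -1.63 ± 0.09, adjusted p = 9.17e-14). CHORDC1, a co-chaperone, was 23.4, 24.5 and 26.4 FPKM and 8.04, 9.42 and 9.87 FPKM (log2 fold change -1.33 ± 0.05, adjusted p = 1.08e-16). In both the persister libraries all lay below the parental ones. The co-chaperones FKBP4 (-0.94 ± 0.05) and STIP1 (-0.88 ± 0.05) fell by less. HSF1, the transcription factor that induces these genes, was 15.7, 18.5 and 19.5 FPKM and 17.5, 19.1 and 20.8 FPKM, with overlapping groups (log2 fold change 0.10 ± 0.05, adjusted p = 0.102). Without persister library 5 the HSF1 change was 0.12 (adjusted p = 0.0452). Of 21 tested chaperonins 13 fell and 2 rose (median -0.20), with CCT3, a subunit of the ring that folds actin and tubulin, at -0.60 ± 0.03 (adjusted p = 2.62e-13). LONP1, the mitochondrial protease of that list, rose (log2 fold change 0.73 ± 0.09, adjusted p = 6.32e-08). Of 31 tested proteasome subunits, 15 fell and 1 rose (median -0.13), with the largest falls at -0.55 ± 0.07 for PSMC3 and -0.49 ± 0.05 for PSMB2.

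The chaperones and stress genes of the endoplasmic reticulum lay near the shares of all genes as a list, while single members changed strongly. Of 25 such genes 12 rose and 4 fell (median 0.19), or 12 and 11 with relative log expression scaling. Of the 23 that reached 1 FPKM in both groups 10 rose and 4 fell. Of all genes 45.8% rose and 21% fell (median 0.14). HERPUD1, which takes part in the disposal of misfolded proteins, was 2.55, 3.0 and 3.12 FPKM in parental and 15.5, 17.1 and 18.7 FPKM in persister libraries (log2 fold change 2.22 ± 0.05, adjusted p = 3.2e-21). XBP1, the factor spliced by IRE1, was 14.6, 16.1 and 18.1 FPKM and 52.3, 55.5 and 59.8 FPKM (log2 fold change 1.72 ± 0.06, adjusted p = 5.17e-18). HSPA5, the BiP chaperone and the endoplasmic reticulum member of the HSP70 family, was 73, 76.1 and 81.4 FPKM and 200.5, 216 and 260.1 FPKM (log2 fold change 1.53 ± 0.05, adjusted p = 2.48e-17). HSPA5 and HSPA8, relatives in different compartments, thus changed in opposite directions, with no overlap of libraries in either. CREB3L2, a membrane-bound stress factor, rose by 1.24 ± 0.08 on the log2 scale, while CALR, the lectin chaperone calreticulin, fell from 209 ± 8.85 to 135 ± 7.02 FPKM (log2 fold change -0.63 ± 0.05, adjusted p = 2.03e-10).

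A heat shock element was searched as 3 units that alternate between GAA and TTC, each 2 bases of any kind from the next, starting with either unit. It was in 4 of 22 promoters of the HSP70 and HSP40 list (18.2%) and 1 of 12 of the HSP90 list. The shares were 0.487% of all promoters and 0.264% of those of genes tested. HSPA1A had no match in its window. The promoter of HSPA8 (chr11:123062137-123062386, minus strand), the named chaperone gene with the highest parental level, carries 2 matches, in capitals, at 230 and 55 bases before the start.
HSPA8: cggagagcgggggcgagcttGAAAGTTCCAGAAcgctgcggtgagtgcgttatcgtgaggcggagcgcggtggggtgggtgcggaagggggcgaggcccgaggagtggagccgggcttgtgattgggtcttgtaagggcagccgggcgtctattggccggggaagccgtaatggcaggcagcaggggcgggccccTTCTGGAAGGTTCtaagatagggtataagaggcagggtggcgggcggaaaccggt

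**Figure D3:**
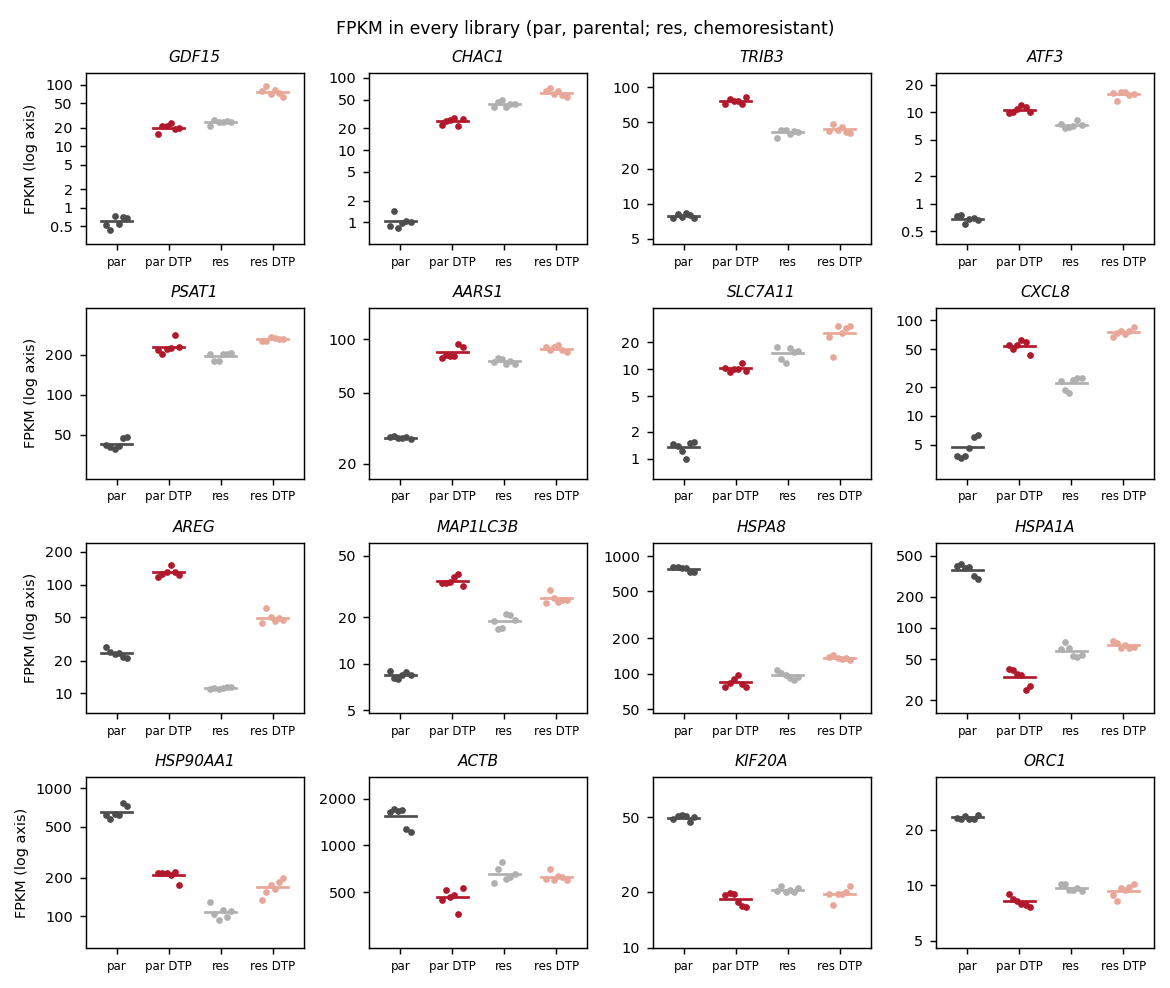
FPKM on a log axis of 16 genes in every library of the 4 groups (parental, parental persister, chemoresistant and chemoresistant persister cells, 6 each). Points are libraries and bars are group means. The 16 genes were chosen among those with large changes. That their parental and parental persister libraries do not overlap (727 to 814 against 76.7 to 96.9 FPKM for HSPA8) therefore follows from the choice. Of all genes tested, 32.8% lay above and 14% below without overlap.

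Cytoskeletal genes formed another abundant class that fell. Of 27 tested actins, tropomyosins and targets of serum response factor (SRF), 18 fell and 3 rose (median -0.48). ACTB, cytoplasmic beta-actin and a common reference gene, was 1215, 1659 and 1719 FPKM in parental and 363, 470.2 and 533 FPKM in persister libraries (log2 fold change -1.71 ± 0.10, adjusted p = 2.18e-13). ACTG1, the gamma isoform, was 1212, 1649 and 1746 FPKM and 505, 596 and 713 FPKM (log2 fold change -1.32 ± 0.09, adjusted p = 9.18e-12). Their summed level did not overlap between groups, 2479 to 3464 FPKM in parental and 868 to 1246 FPKM in persister libraries. ACTN1 (-0.82 ± 0.07) and ACTN4 (-0.78 ± 0.08), the alpha-actinins that crosslink filaments, also fell. Of 12 tested tubulins 8 fell and 3 rose (median -0.75). TUBB4B, a beta-tubulin, was 641, 728 and 789 FPKM and 197, 232 and 245 FPKM (log2 fold change -1.65 ± 0.07, adjusted p = 8.25e-16). TUBA4A (-1.46 ± 0.09), TUBB6 (-1.19 ± 0.10) and TUBB (-1.11 ± 0.04) fell with no overlap of libraries. Actin and tubulin genes have close copies elsewhere in the genome, between which reads may be split. A CArG box, the SRF site, was in 6 of 26 promoters of the actin list (23.1%), against 1.29% of all promoters and 1.04% of those of genes tested. ACTG1 (chr17:81512800-81513049, minus strand), chosen after the shares were seen, has it in capitals 94 bases before the start.
ACTG1: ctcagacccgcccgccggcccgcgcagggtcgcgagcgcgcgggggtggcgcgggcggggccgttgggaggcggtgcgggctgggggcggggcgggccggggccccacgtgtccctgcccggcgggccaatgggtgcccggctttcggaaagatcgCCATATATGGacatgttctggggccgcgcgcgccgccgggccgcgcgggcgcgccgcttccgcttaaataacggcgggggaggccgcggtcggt

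Genes of cell division fell as a block. Of 35 mitosis genes 29 fell and 1 rose (median -0.53), and of 43 genes of DNA replication and nucleotide supply 32 fell and 2 rose (median -0.41), far from the 21% of all genes that fell. KIF20A, a kinesin of cytokinesis, was 47.3, 50.5 and 51.3 FPKM in parental and 16.6, 18.5 and 19.7 FPKM in persister libraries (log2 fold change -1.40 ± 0.05, adjusted p = 1.41e-17). PLK1, a kinase of mitotic entry, was 63.1, 69.2 and 70.9 FPKM and 24.8, 31.5 and 33.3 FPKM (log2 fold change -1.15 ± 0.06, adjusted p = 2.49e-14). For both, the highest persister library lay well under the lowest parental library. AURKB, the kinase of the chromosomal passenger complex, changed by -1.08 ± 0.08 and the cyclin CCNA2 by -1.05 ± 0.06 on the log2 scale. KIF18B, a kinesin that acts on microtubule ends, was among the 20 largest falls (log2 fold change -1.29 ± 0.09, adjusted p = 3.05e-12). In the replication list, ORC1, a subunit of the origin recognition complex, was 22.8, 23.1 and 24.1 FPKM and 7.61, 8.1 and 8.99 FPKM (log2 fold change -1.41 ± 0.04, adjusted p = 2.15e-18). UHRF1, which couples replication to DNA methylation, was 34.9, 40.9 and 42.9 FPKM and 13.1, 13.4 and 16.7 FPKM (log2 fold change -1.42 ± 0.07, adjusted p = 2.05e-14). The helicase subunits MCM4 (-1.24 ± 0.04) and MCM5 (-1.18 ± 0.08) also fell with no overlap. All of these division genes stayed above 7 FPKM in every persister library.

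The genes that gate entry into the cycle were mixed. Of 25 tested G1 cyclins, CDK inhibitors and RB pathway genes, 9 rose and 13 fell (median -0.23). BTG1, an antiproliferative protein, went from 1.2 ± 0.161 to 4.63 ± 0.623 FPKM (log2 fold change 1.35 ± 0.07, adjusted p = 4.37e-14). CDKN2B, the p15 inhibitor, went from 2.71 ± 0.129 to 5.46 ± 0.238 FPKM (log2 fold change 0.80 ± 0.05, adjusted p = 1.72e-12), and CDKN1A, p21, from 1.17 ± 0.225 to 2.42 ± 0.248 FPKM (log2 fold change 0.66 ± 0.08, adjusted p = 1.94e-07). Both inhibitors stayed under 6 FPKM in every library. CDK6 rose by 0.78 ± 0.11, and SKP2, the ligase subunit that degrades p27, changed by -0.72 ± 0.08. Of 19 tested p53 targets 11 rose and 4 fell (median 0.21), or 7 and 5 with relative log expression scaling, with GADD45A, a stress-induced growth arrest gene that ATF4 also induces, at 9.17, 10.1 and 10.2 FPKM and 27.9, 29.6 and 32.1 FPKM (log2 fold change 1.5 ± 0.06, adjusted p = 4.42e-16).

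The CHR element TTTGAA, a site of the DREAM complex, was in 21 of 29 mitosis promoters (72.4%). It was in 15.4% of all promoters and 9.13% of those of genes tested. The E2F site TTTNNCGC was in 22 of 38 replication promoters (57.9%), against 6.9% and 11% in the same order. Other searched motifs were the sterol element, in 1 of 22 cholesterol promoters (4.55%, against 1.15% and 0.987%), and the AP-1 site. The AP-1 site was in 1 of 20 immediate early promoters (5%, against 7.76% and 4.23%). The antioxidant element was in 8 of 28 NRF2 list promoters (28.6%, against 13.6% and 15.5%) and 9 of 21 lysosomal ones (42.9%). KIF20A had no CHR match in its window. PLK1 (chr16:23678639-23678888, plus strand) and UHRF1 (chr19:4909251-4909500, plus strand, chosen after the shares were seen) are shown with the CHR element and the E2F sites, respectively, in capitals, at 29 bases before the start in PLK1 and at 112 and 14 in UHRF1.
PLK1: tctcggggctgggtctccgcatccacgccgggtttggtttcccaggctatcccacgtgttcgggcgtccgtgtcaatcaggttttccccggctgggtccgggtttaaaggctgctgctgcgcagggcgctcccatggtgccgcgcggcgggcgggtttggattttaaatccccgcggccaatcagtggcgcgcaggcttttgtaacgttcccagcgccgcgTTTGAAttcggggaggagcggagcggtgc
UHRF1: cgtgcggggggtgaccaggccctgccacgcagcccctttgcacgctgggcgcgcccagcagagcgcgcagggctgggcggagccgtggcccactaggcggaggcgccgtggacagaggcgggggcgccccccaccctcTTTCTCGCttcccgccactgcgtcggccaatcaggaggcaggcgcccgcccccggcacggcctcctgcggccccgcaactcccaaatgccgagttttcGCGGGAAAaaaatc

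Most mRNAs of ribosome biogenesis factors fell, and most of those of cytosolic ribosomal proteins did not pass the test. Of 35 tested ribosome biogenesis factors 22 fell and 1 rose (median -0.29). RRS1, a factor of large subunit assembly, was 39.6, 43.9 and 46.5 FPKM in parental and 16.9, 17.8 and 20.8 FPKM in persister libraries (log2 fold change -1.21 ± 0.06, adjusted p = 1.91e-14). NCL, the nucleolar protein nucleolin, was 261, 269.7 and 279.5 FPKM and 115, 127 and 144 FPKM (log2 fold change -1.07 ± 0.04, adjusted p = 3e-16). TCOF1 (-0.96 ± 0.07) and RRP9 (-0.86 ± 0.07), which serve ribosomal RNA synthesis and processing, fell too. The 1 gene of the list that rose was MYC, the transcription factor that drives many of the others, from 96.8, 110.4 and 114 FPKM to 148, 183 and 198 FPKM (log2 fold change 0.70 ± 0.06, adjusted p = 1.54e-10). Of 77 tested cytosolic ribosomal proteins 19 rose and 2 fell (median 0.10), and this count turned with the scaling, to 2 rises and 8 falls under relative log expression, and dropped to 10 rises and 1 fall without persister libraries 5 and 6. Of 17 tested small nucleolar RNA host genes, 12 rose and 1 fell (median 0.32), or 8 and 1 with relative log expression scaling, and SNHG1 went from 42.6 ± 2.47 to 89.5 ± 6.68 FPKM (log2 fold change 1.05 ± 0.06, adjusted p = 5.53e-13). SNHG32 (1.17 ± 0.10) and SNHG8 (0.94 ± 0.11) rose as well.

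**Figure D4:**
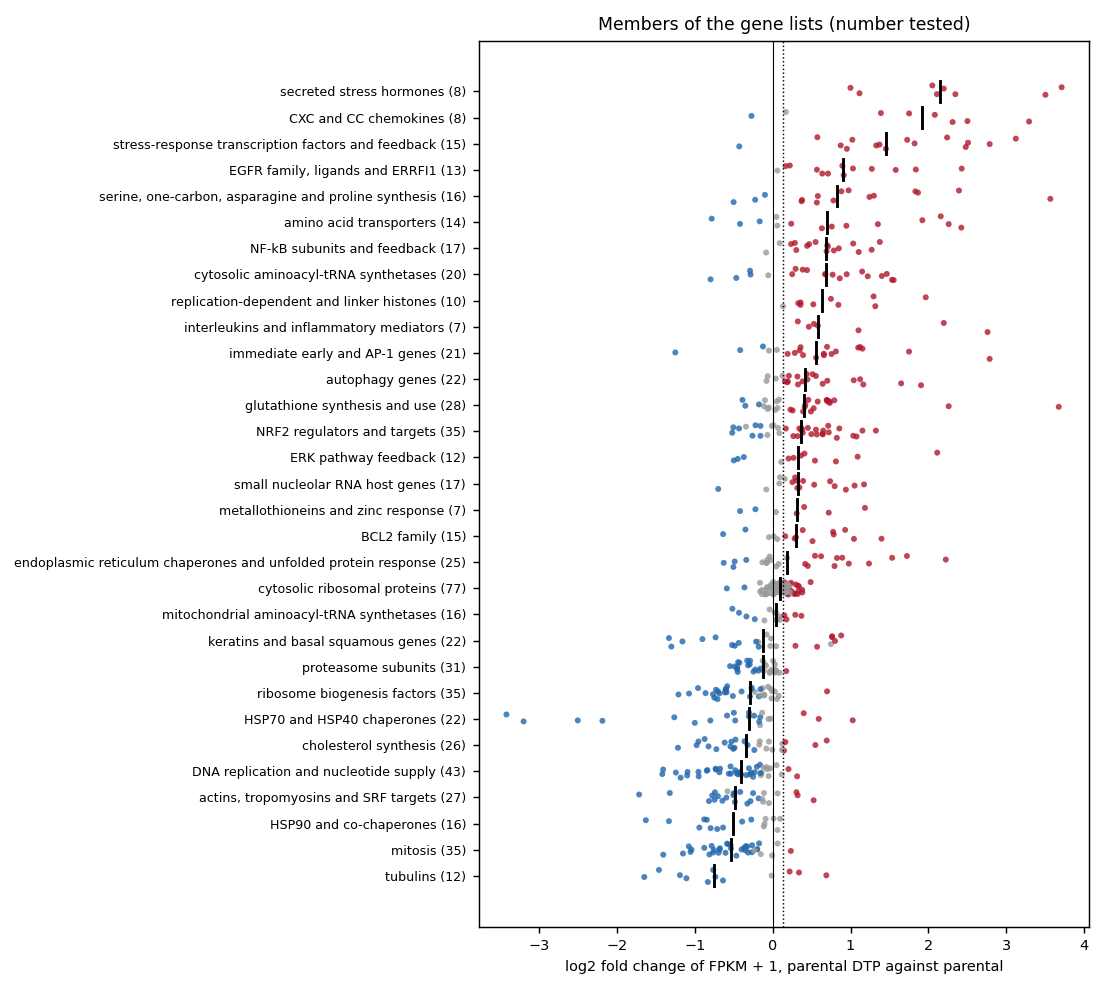
Log2 fold change (persister against parental, FPKM + 1) of every tested member of 31 gene lists, 1 point per gene, ordered by the list median (black bar). Red points rose, blue points fell and grey points did not pass an adjusted p of 0.05, and the dotted line is the median of all genes (0.14). Medians run from -0.75 for tubulins to 2.15 for secreted stress hormones.

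Squamous identity genes moved in both directions. Of 22 tested keratins and basal genes 6 rose and 10 fell (median -0.13). KRT6A, a keratin of activated and hyperproliferative squamous epithelium, was 1783, 1896 and 2069 FPKM in parental and 701, 763 and 939 FPKM in persister libraries (log2 fold change -1.30 ± 0.07, adjusted p = 3.97e-14). KRT17, its usual companion, was 406, 430.2 and 487 FPKM and 211, 233 and 269 FPKM (log2 fold change -0.90 ± 0.08, adjusted p = 3.6e-10). The near-identical KRT6B (-1.16 ± 0.20) and KRT6C (-1.33 ± 0.24) fell too, at levels where reads from KRT6A may be split among them. KRT5 and KRT14, the basal pair, changed by -0.49 ± 0.06 and -0.73 ± 0.07 (adjusted p = 1.72e-07 and 6.45e-09). The basal lineage factors TP63 and SOX2 rose, TP63 from 82, 94 and 99.5 FPKM to 136, 174 and 185 FPKM (log2 fold change 0.80 ± 0.10, adjusted p = 1.61e-07) and SOX2 from 64.4, 70.1 and 85.7 FPKM to 126, 135 and 142 FPKM (log2 fold change 0.88 ± 0.06, adjusted p = 2.18e-11). Of 14 tested cornified envelope genes 2 rose and 6 fell (median -0.09), and without persister libraries 5 and 6, when 12 were tested, 2 rose and 8 fell (median -0.49). SPRR2A and SPRR1B, envelope precursors, changed by -1.13 ± 0.09 and -0.92 ± 0.11. Of 21 junction genes 11 rose and 5 fell (median 0.22), or 7 and 8 with relative log expression scaling, and of the 18 that reached 1 FPKM in both groups 9 rose and 5 fell. DSG3, a basal desmosomal cadherin, was 21, 23 and 26.5 FPKM and 62.4, 65.1 and 75.6 FPKM (log2 fold change 1.46 ± 0.09, adjusted p = 4.66e-13), and ESRP1, an epithelial splicing regulator, 14.7, 15.1 and 17.5 FPKM and 41.8, 45.2 and 49.4 FPKM (log2 fold change 1.47 ± 0.06, adjusted p = 3.13e-16). The tight junction genes CLDN7 (1.05 ± 0.07) and CLDN1 (0.85 ± 0.05) rose. Of 12 tested mesenchymal genes 4 rose and 3 fell (median -0.02), or 1 and 3 with relative log expression scaling. Without persister libraries 5 and 6 the counts were 4 and 3 and the median was 0.22.

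Most autophagy genes rose, and most cholesterol synthesis genes fell. Of 22 tested autophagy genes 18 rose and 0 fell (median 0.41), 5 by at least 2-fold, or 13 and 3 with relative log expression scaling. MAP1LC3B, the LC3B protein of the autophagosome membrane, was 7.94, 8.46 and 8.97 FPKM in parental and 31.8, 33.7 and 38 FPKM in persister libraries (log2 fold change 1.91 ± 0.06, adjusted p = 6.26e-19). GABARAPL1, of the same family, was 5.06, 5.44 and 6.3 FPKM and 18, 19.3 and 21.3 FPKM (log2 fold change 1.65 ± 0.05, adjusted p = 7.2e-19). Both had groups that did not overlap, and the initiating kinase ULK1 (1.16 ± 0.06) and its scaffold RB1CC1 (1.12 ± 0.12) rose with them. Of 32 tested lysosomal genes 13 rose and 6 fell (median 0.05), or 6 and 14 with relative log expression scaling (median -0.10). Of 26 tested cholesterol synthesis genes 15 fell and 4 rose (median -0.34). INSIG1, the sterol-regulated anchor of SCAP, was 4.87, 5.29 and 6.33 FPKM and 1.36, 1.8 and 2.16 FPKM (log2 fold change -1.21 ± 0.07, adjusted p = 2.28e-13). SQLE (-0.98 ± 0.08) and HMGCS1 (-0.95 ± 0.06), enzymes of the pathway, fell. FASN, fatty acid synthase, was 88.4, 111 and 117 FPKM and 42.5, 48.8 and 62.6 FPKM (log2 fold change -1.03 ± 0.10, adjusted p = 2.84e-09), in a fatty acid list where 6 of 16 rose and 7 fell. Of 29 tested glycolysis and hypoxia genes 11 rose and 11 fell (median 0.08), among them HIF1A, at 62, 67.9 and 81 FPKM and 115, 173 and 181 FPKM (log2 fold change 1.18 ± 0.11, adjusted p = 1.59e-09), and NDRG1 (0.88 ± 0.14).

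The lists of redox and metal handling genes differed in their counts. Of 35 tested NRF2 regulators and targets 22 rose and 7 fell (median 0.37), or 19 and 8 with relative log expression scaling. Of the 30 that reached 1 FPKM in both groups 19 rose and 5 fell. NFE2L2, which encodes NRF2, was 13.8, 15.1 and 18 FPKM in parental and 27.8, 35.5 and 37.2 FPKM in persister libraries (log2 fold change 1.08 ± 0.08, adjusted p = 1.62e-11). KEAP1, its inhibitor, was 34.2, 41.7 and 45 FPKM and 25, 26.1 and 35.6 FPKM, with overlapping groups (log2 fold change -0.52 ± 0.09, adjusted p = 1.98e-05). GCLC and GCLM, the subunits of glutamate-cysteine ligase, changed by 0.73 ± 0.06 and 0.70 ± 0.10 (adjusted p = 4.12e-10 and 1.49e-06). HMOX1, haem oxygenase, varied widely in persister libraries, 1.6, 4.34 and 6.23 FPKM against 0.676, 0.976 and 1.31 FPKM in parental ones (log2 fold change 1.33 ± 0.19, adjusted p = 1.17e-06). CYP4F11, a fatty acid hydroxylase, changed by 1.03 ± 0.07. Of 28 tested glutathione genes 17 rose and 3 fell (median 0.40), a list that also holds CHAC1 and SLC7A11. Of 21 tested genes of lipoylation, lipoylated complexes and copper, the machinery of copper-induced death, 6 rose and 4 fell (median 0.09), or 4 and 6 with relative log expression scaling. FDX1, the ferredoxin that supports lipoylation, was 2.49, 2.83 and 3.22 FPKM and 2.85, 3.26 and 4.04 FPKM with overlapping groups, and its adjusted p of 0.025 did not hold under 8 of the alternative settings. SLC31A1, a copper importer through which platinum drugs also enter, was 11.2, 11.7 and 12.7 FPKM and 14.5, 15.1 and 18.7 FPKM (log2 fold change 0.37 ± 0.06, adjusted p = 1.11e-05), and LIAS, lipoyl synthase, changed by 0.50 ± 0.07. The metallothionein MT1F, with close paralogs, changed by 1.19 ± 0.09. Of 18 tested genes of iron handling and ferroptosis 6 rose and 6 fell (median 0.08), and TFRC, the transferrin receptor, fell from 61.1, 64.9 and 68.3 FPKM to 33.9, 35.8 and 44.9 FPKM (log2 fold change -0.78 ± 0.08, adjusted p = 8.24e-09).

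Genes of cell death moved in both directions. Of 15 tested BCL2 family genes 10 rose and 2 fell (median 0.30), and of the 12 that reached 1 FPKM in both groups 7 rose and 2 fell. PMAIP1, the NOXA protein that antagonises MCL1, was 1.88, 2.25 and 2.42 FPKM in parental and 6.09, 7.6 and 8.3 FPKM in persister libraries (log2 fold change 1.40 ± 0.06, adjusted p = 1.24e-15). BBC3, PUMA, was 0.126, 0.185 and 0.226 FPKM and 1.34, 1.43 and 1.55 FPKM (log2 fold change 1.04 ± 0.06, adjusted p = 5.5e-13). Both are activated in stressed cells and had groups that did not overlap. BNIP3L, a mitophagy receptor, rose by 0.93 ± 0.08, while the pore former BAX fell from 20.1 ± 2.06 to 12.6 ± 1.25 FPKM (log2 fold change -0.64 ± 0.09, adjusted p = 5.61e-07). Of 19 tested death receptor, caspase and gasdermin genes 13 rose and 3 fell (median 0.18), or 9 and 5 with relative log expression scaling. TNFRSF10B, the TRAIL receptor DR5 and a CHOP target, was 15, 16.1 and 16.3 FPKM and 29.8, 32.3 and 35.2 FPKM (log2 fold change 0.99 ± 0.05, adjusted p = 1.54e-14). TNFRSF10D, a decoy receptor for the same ligand, was 5.3, 5.86 and 6.55 FPKM and 2.02, 2.32 and 2.54 FPKM (log2 fold change -1.07 ± 0.06, adjusted p = 2.48e-13). The signalling receptor and the decoy moved in opposite directions, with no overlap of libraries in either.

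Outside the lists, the 20 largest rises also held NIBAN1, a stress-induced cytosolic protein (2.41 ± 0.09), and TCIM, a regulator of Wnt signalling (2.33 ± 0.05). The 20 largest falls also held FGFBP1, a secreted carrier of fibroblast growth factors (-1.53 ± 0.06), TNFRSF8, the CD30 receptor (-1.39 ± 0.07), SRRT, a factor of RNA processing (-1.33 ± 0.04), and PHLDA2, an imprinted growth suppressor (-1.29 ± 0.11). TNFRSF8 stood at 13.8, 16 and 17.5 FPKM in parental and 4.43, 5.46 and 5.87 FPKM in persister libraries.

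**Figure D5:**
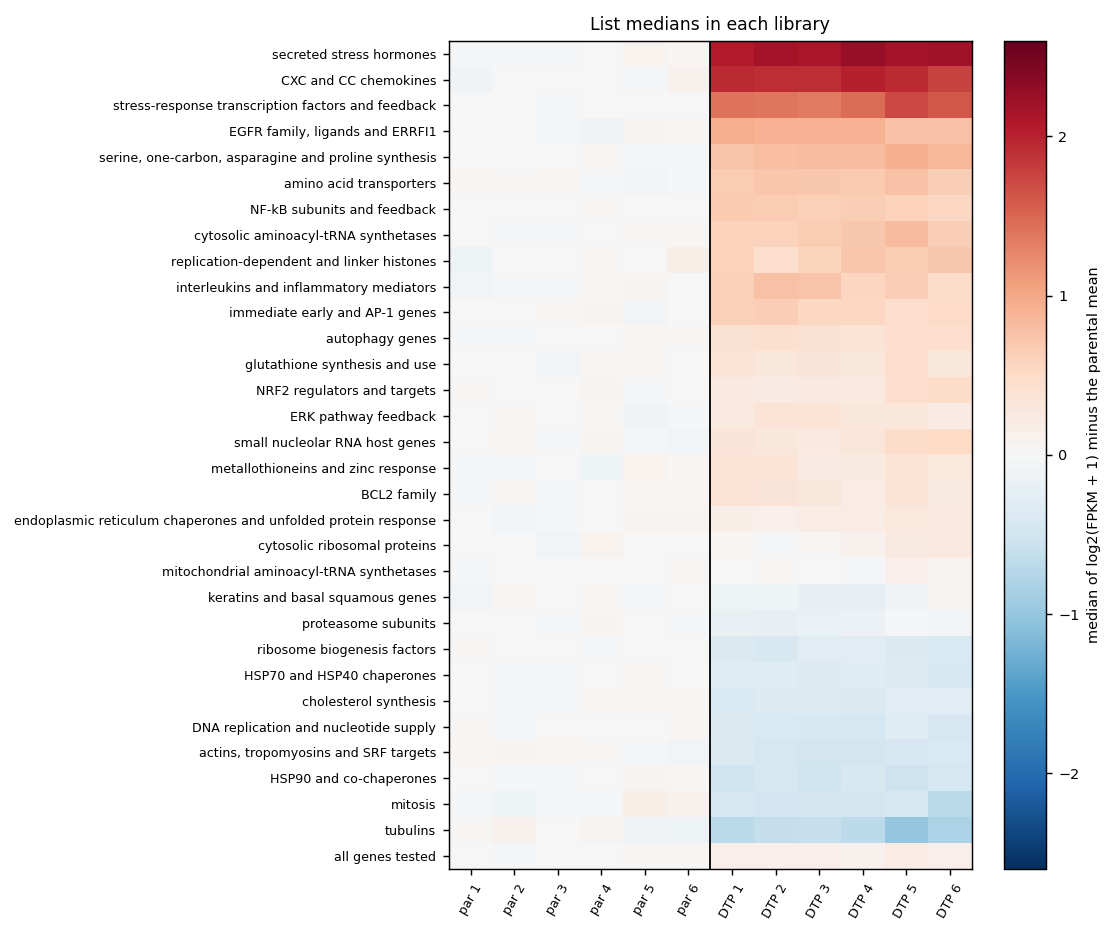
Median over the tested members of 31 lists, and of all genes tested, of log2(FPKM + 1) minus the mean of the parental libraries, in each of the 12 libraries (columns, par for parental). Red is above and blue below the parental mean. All 6 persister libraries are red for the stress hormones, chemokines and stress factors and blue for tubulins, mitosis and HSP90 genes, persister libraries 5 and 6 included.

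Interferon-stimulated genes depended on those libraries. Of 25 tested 12 rose and 2 fell (median 0.23), or 7 and 7 with relative log expression scaling. Of the 22 that reached 1 FPKM in both groups 10 rose and 2 fell. Without persister libraries 5 and 6, when 24 were tested, the counts were 8 and 6 (median 0.07), and IFI27 was higher in those libraries, as given above. The class I antigen presentation list, with 8 rises and 2 falls of 15, had 7 and 2 without them, and 2 and 4 with relative log expression scaling.

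The same contrast in the chemoresistant line gave fewer rises among these genes, which is not a like comparison. The filter used the parental and parental persister groups alone, and 1372 genes entered by the parental persister mean only. The parental share of rises was also 33.2% rather than 45.8% with relative log expression scaling, for which no count of the chemoresistant line is given. There 2685 of these 12690 genes (21.2%) rose in the persister cells and 3201 (25.2%) fell, and the 2 changes differed from each other in 8071 genes (63.6%; interaction term, adjusted p under 0.05). The stress factor list had a median of 1.45 in the parental and 0.14 in the chemoresistant line, and all 15 members differed. HSP70 and HSP40 genes had -0.30 and 0.19, and 20 of 22 differed. For mitosis genes the medians were -0.53 and 0.12, with 30 of 35 differing. Levels show where the lines started. HSPA8 was 76.7 to 96.9 FPKM in parental persister cells, 89 to 107 FPKM in chemoresistant cells and 130.5 to 143 FPKM in their persister cells, against 727 to 814 FPKM in parental cells. TRIB3 was 71.3 to 82.2 FPKM in parental persister and 36.9 to 43.2 FPKM in chemoresistant cells, where its persister change was 0.08 (adjusted p = 0.178). PSAT1 was 203 to 282 FPKM and 180.1 to 205 FPKM in the same order. KIF20A was 16.6 to 19.7 FPKM and 19.9 to 21.4 FPKM. For HSPA8, PSAT1 and KIF20A the parental libraries were the group that stood apart. For TRIB3 the parental persister libraries also lay above both chemoresistant groups (40.4 to 48.3 FPKM in chemoresistant persister cells). These genes were chosen with their values known. The parental libraries also lay below all others for GDF15 and CXCL8, at 0.431 to 0.742 and 3.67 to 6.29 FPKM. In parental persister cells these genes were at 15.9 to 23.9 and 43.15 to 62.5 FPKM. They were at 21.7 to 26.8 and 17.4 to 24.8 FPKM in chemoresistant cells. The chemoresistant persister cells were higher again, at 63.9 to 95.6 and 67.8 to 84.6 FPKM. AREG did not follow the pattern, at 21.2 to 26.7 FPKM in parental and 118 to 152 FPKM in parental persister cells. It was at 10.9 to 11.5 FPKM in chemoresistant cells and 44.7 to 61 FPKM in their persister cells, and AREG rose in both lines. FOSL1 fell in the parental line and rose in the chemoresistant line (1.14, adjusted p = 6.92e-13, with an adjusted p of 2.08e-16 for the difference).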

How the data were processed

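RNA was sequenced from 24 libraries of 1 cell line, of which 12 were compared here (6 parental, 6 parental-DTP). The labels give each library's group and replicate number. TRIzol extraction and a standard Illumina library preparation are stated per the labels' protocols, and the submitters' processing notes name GRCh38. No aligner, counting tool or strandedness is given in the sources used here, and overlapping and antisense genes may share reads. The authors deposited FPKM values, per the file headers, for 61251 genes, of which 20150 were at 0 in every library and 58337 matched GENCODE 29. Low values are whole multiples of 1 read, from which reads were recovered for 41099 genes (99.9989% of values whole within 0.02 reads) and summed to library totals. Together with library number, these totals limit precision at low levels.

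The test was limma 3.58.1 (R 4.3.3) with a mean-variance trend on log2(FPKM + 1), 4 group means fitted over all 24 libraries, on the 12690 genes that averaged 1 FPKM or more in parental or parental-DTP cells, with p-values adjusted by Benjamini-Hochberg over all of them and a threshold of 0.05. The change in the chemoresistant line and the difference of the changes came from the same fit. The pseudocount of 1 understates the change of low genes. The script was tested on simulated data. Named genes are the protein-coding genes with the 20 largest changes each way (no overlap of libraries, higher group averaging 5 FPKM or more), up to 4 genes per list by size of change, and a fixed set: GDF15 and its receptor GFRAL, NRF2-related NFE2L2, KEAP1, GCLC and GCLM, and copper-related FDX1 and SLC31A1. Some of these genes are not reported here, 1 of them being left out of the plot of synthetases. There were 59 lists with 1392 entries. The comparison, its members and the lists were chosen with earlier results of these data known, so list counts are descriptions, given beside those of all genes. Promoters and motif matches come from RefSeq windows. Alternatives changed the scaling, pseudocount, filter, libraries and replicate block, and, added after seeing the data, the GC adjustment and limma-voom on recovered reads.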

Additional observations from a re-analysis of the deposited data

Results flagged for a closer look

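In 296 groups of 6 libraries (148 named genes in parental and persister cells), 22 held a library whose gap to its nearest neighbour was over the 95% critical value of Dixon's test, where chance gives about 1 in 20. Persister libraries 5 and 6 held 17 of the 22. A gap to the nearest neighbour cannot flag libraries that deviate as a pair, such as parental libraries 5 and 6. In persister library 6 the highest of the group were PCK2 at 77.5 FPKM (others 58.5 to 63.7), MARS1 at 101 FPKM, BCL3 at 17.0 FPKM, LONP1 at 108 FPKM, RRP9 at 54.3 FPKM, KEAP1 at 35.6 FPKM and KRT5 at 1413 FPKM (others 1077 to 1169). The lowest there were ALDH1L2 at 9.01 FPKM, HSP90AA1 at 176 FPKM (others 211 to 222) and NFE2L2 at 27.7 FPKM. In persister library 5 the highest were PSAT1 at 282 FPKM (others 203 to 229), DNAJA1 at 48.7 FPKM, SLC31A1 at 18.7 FPKM, LIAS at 2.99 FPKM and BNIP3L at 13.3 FPKM, and the lowest were TUBB6 at 43.2 FPKM (others 60.2 to 63.8) and AURKB at 30.0 FPKM. Among parental libraries, CHAC1 was 1.46 FPKM in library 2, SLC43A1 0.594 FPKM in library 3, CREB3L2 4.64 FPKM in library 4, and TCIM 2.22 and MYC 96.8 FPKM in library 5. For KEAP1 the groups overlapped through such a library.

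The persister change differed between the parental and the chemoresistant line in 8071 of 12690 genes by the interaction term.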

How the results depend on the processing

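Of 148 named genes, 146 kept direction and call under all of the 22 alternatives in which they were tested. Most were named for a large change past the threshold, which favours such stability, so this does not speak for the other calls. FDX1 lost its call under 8, with values from -0.005 (reversed, GC-adjusted values, adjusted p = 0.96) to 0.173 (no filter), and HSF1 gained one without persister library 5. Genes that rose and fell moved from 5808 and 2667 to 9005 rises with no filter (41101 genes), to 2578 rises (4593 changed in all) with a filter of 5 FPKM (6907 genes), and to 4200 falls with relative log expression scaling and 4195 with GC-adjusted values. The 379 rises of at least 2-fold became 1148 with a pseudocount of 0.1, 231 with the stricter filter, 1247 with limma-voom on recovered reads and 251 with GC-adjusted values, and the 91 falls became 170 with relative log expression scaling, 149 with a pseudocount of 0.1 and 165 with limma-voom. Fewer or more genes tested set the filter counts, and a smaller pseudocount widens low genes' changes; the cause of the other shifts was not tested. Genes whose change differs between the lines numbered 12192 with no filter and 4425 with the stricter one, against 8071.

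Leaving out each of the 12 libraries in turn gave 8117 to 8458 changed genes, 5521 to 5832 rises, 2558 to 2675 falls, 364 to 406 and 86 to 94 of at least 2-fold, and 7893 to 8063 differences between the lines. The replicate numbers do not pair the libraries: same-numbered libraries had correlations of deviations from -0.408 to 0.42. With a replicate block 5807 genes rose and 2657 fell, and no named gene changed its call. In 13 of 55 lists, all with medians within 0.10 of 0, the median changed sign under some alternative, 10 of them under relative log expression scaling. The planned count models were not run, since the deposited unit is FPKM. Depth limits genes near the floor of 1 FPKM, and parental levels under 0.5 FPKM rest on few reads.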

Other observations

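Most tested long non-coding genes rose. Of 348 tested lincRNAs 283 rose and 17 fell (median log2 fold change 0.54), and of 448 antisense genes 356 rose and 19 fell (median 0.52), against 4452 and 2471 of 10242 protein-coding genes (median 0.10). Of these, 146 lincRNAs, 218 antisense genes and 584 coding genes reached 1 FPKM in persister cells alone, where the filter favours a rise. Of those that reached it in both groups, 142 of 197 lincRNAs, 149 of 223 antisense genes and 3902 of 9561 coding genes rose. Among genes of 1 to 3 FPKM in the higher group, 190 of 233 lincRNAs and 1305 of 2409 protein-coding genes rose. With relative log expression scaling 254 lincRNAs rose and 20 fell, and without persister libraries 5 and 6 the counts were 269 and 15. In the chemoresistant line the lincRNA median was -0.13. All 5 tested nuclear-retained RNAs rose (median 0.71), among them NEAT1 from 6.96 ± 0.87 to 22.6 ± 2.40 FPKM and MALAT1 with overlapping groups (0.45 ± 0.14, adjusted p = 0.00741). Their part in the lincRNA counts was not tested, and without known strandedness antisense reads cannot be told apart from those of the opposite gene.

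Of 10 tested histone genes 9 rose and 0 fell (median 0.64), while 32 of 43 genes of DNA replication fell. AGR2, a protein disulphide isomerase and the only tested glandular marker, rose by 1.19 ± 0.08.

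There were 15 genes under 0.1 FPKM in parental and at least 1 FPKM in persister cells, among them INHBE, KRT19, RAB39B and the pseudogene ASNSP1, and 0 the other way. KRT19, a keratin of simple epithelia, did not pass the test (limma adjusted p = 0.132): it was 0.118 to 0.174 FPKM in persister libraries 1 to 4, and 2.32 and 5.21 FPKM in libraries 5 and 6.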
